A study of Mus musculus with 12 samples.

Results

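The regions described here are the places in the genome where BRD3 was called in untreated RAW264.7 cells and again in each of 3 treated libraries. A region of the untreated BRD3 list was a member when it shared at least 1 bp with a region in each of the other 3 BRD3 lists. Of 3668 untreated BRD3 regions, 1727 were members (47.1%, exact 95% binomial interval 45.5 to 48.7), and 1941 were missing from at least 1 treated list. The 8 lists of the series held 16188 regions in all. The members were chosen by the BRD3 calls and their positions in the 4 lists, so this share and the BRD3 widths of the members are given as a description.

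RAW264.7 is a mouse monocyte-derived line that can be driven towards osteoclasts, the cells that resorb bone. The source label of the samples names bone marrow, whereas the cell line and cell type labels name RAW264.7. The 4 groups are cells given RANKL at 50 ng/ml, cells given the BET inhibitor I-BET at 500 nM, cells given both, and untreated cells, each crosslinked for chromatin immunoprecipitation and sequencing (ChIP-seq), the treated ones after 4 h. Each antibody and treatment has 1 library, so nothing here measures how replicates of a treatment vary, and no test between treatments was possible. The depth of each library is unknown, since the lists carry no read counts. Intervals are exact binomial ones for shares and order-statistic ones for medians, and they cover counting error only.

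BRD3 belongs to the BET family of bromodomain proteins, as does BRD2. Its paired bromodomains hold acetylated lysines, mainly on histone tails, and BET proteins recruit transcription elongation factors such as P-TEFb to active genes. I-BET compounds occupy the pocket of the bromodomain that binds the acetylated lysine. NRF1 (nuclear respiratory factor 1, not to be mistaken for NFE2L1) is a transcription factor that binds as a dimer to a GC-rich palindrome. Its sites lie close to the starts of many broadly expressed genes, among them genes for the respiratory chain and the mitochondrial ribosome.

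The promoters under members carried the letters of the NRF1 site more often than those under the rest of the untreated BRD3 regions. Binding of NRF1 itself was not measured here. The 10-letter motif GCGCANGCGC, called the NRF1 dyad below, holds both arms of that palindrome around a central base that may vary. It was built by extending a short NRF1 word, GCATGCG, with the overlapping words that stood out most in member promoters, and was therefore chosen after the sequences were seen, so its shares in member and other promoters are a description. The promoters of Sdha, the catalytic subunit of succinate dehydrogenase, and Mrpl45, a mitochondrial ribosomal protein, are shown because they hold more than 1 dyad each. The 250 bases before the start are printed 5′ to 3′ in the direction of the gene, from RefSeq on build GRCm38.p6, with each dyad in capitals. They lie at Sdha (chr13:74350241-74350490, minus strand) and Mrpl45 (chr11:97315466-97315715, plus strand). Sdha held 3 dyads in these bases and Mrpl45 held 2.
Sdha: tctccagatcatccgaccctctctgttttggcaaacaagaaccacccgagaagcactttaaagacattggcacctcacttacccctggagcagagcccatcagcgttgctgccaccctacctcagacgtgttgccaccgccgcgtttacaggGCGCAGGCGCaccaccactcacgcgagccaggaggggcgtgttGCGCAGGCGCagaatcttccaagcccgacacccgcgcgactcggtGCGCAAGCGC
Mrpl45: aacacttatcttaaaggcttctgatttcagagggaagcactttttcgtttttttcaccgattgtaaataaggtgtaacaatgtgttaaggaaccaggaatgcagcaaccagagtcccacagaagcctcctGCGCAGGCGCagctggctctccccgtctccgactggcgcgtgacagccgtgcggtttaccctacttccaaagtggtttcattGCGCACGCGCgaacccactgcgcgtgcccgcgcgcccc

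Promoters of further members are shown in the same way to let the dyad and its surroundings be compared between genes of different roles. Each stretch has the 30 bases on either side of 1 dyad. Ndufs5 and Cox6a1 are subunits of respiratory complexes I and IV, and Sdhd anchors complex II in the membrane. Eif3k is a subunit of a translation initiation factor, Kars loads lysine onto its tRNA, and Snrpd2 is a core protein of the spliceosomal small nuclear ribonucleoproteins. Polr2h is a subunit shared by the nuclear RNA polymerases, Ldha makes lactate from pyruvate, and Ccnt2 is a cyclin of P-TEFb. The stretches are Ndufs5 (chr4:123718245-123718314, minus strand), Cox6a1 (chr5:115349036-115349105, minus strand), Sdhd (chr9:50603889-50603958, minus strand), Eif3k (chr7:28981927-28981996, minus strand), Kars (chr8:112011364-112011433, minus strand), Snrpd2 (chr7:19149743-19149812, plus strand), Polr2h (chr16:20717755-20717824, plus strand), Ldha (chr7:46846990-46847059, plus strand) and Ccnt2 (chr1:127774048-127774117, plus strand).
Ndufs5: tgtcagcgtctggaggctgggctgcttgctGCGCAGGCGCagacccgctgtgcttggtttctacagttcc
Cox6a1: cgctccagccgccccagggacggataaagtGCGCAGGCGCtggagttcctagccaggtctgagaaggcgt
Sdhd: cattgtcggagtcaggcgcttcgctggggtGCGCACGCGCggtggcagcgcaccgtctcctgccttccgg
Eif3k: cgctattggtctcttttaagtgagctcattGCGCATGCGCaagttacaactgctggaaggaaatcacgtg
Kars: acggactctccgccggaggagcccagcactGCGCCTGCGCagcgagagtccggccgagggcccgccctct
Snrpd2: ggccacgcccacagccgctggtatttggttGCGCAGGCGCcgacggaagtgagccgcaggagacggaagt
Polr2h: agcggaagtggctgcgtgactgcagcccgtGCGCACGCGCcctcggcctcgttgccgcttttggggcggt
Ldha: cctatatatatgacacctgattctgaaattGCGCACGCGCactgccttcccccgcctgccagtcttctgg
Ccnt2: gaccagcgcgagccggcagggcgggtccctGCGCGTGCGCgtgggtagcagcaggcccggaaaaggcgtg

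These members were called at similar positions in all 4 libraries. The Ndufs5 region was 429 bp wide with RANKL, 462 bp with I-BET, 373 bp with both and 485 bp in untreated cells, and 373 bp were covered in all 4 lists. The Cox6a1 region was 688, 644, 638 and 556 bp in that order, and all of its untreated width was covered in every list. The Ldha region was 1886, 1871, 1887 and 1967 bp wide, with 1864 bp shared. In Snrpd2 the dyad lay 13.5 bp from the middle of the stretch shared by all 4 lists, in Ccnt2 17 bp, in Cox6a1 16 bp and in Ndufs5 36.5 bp.

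Promoter sequence was available for 21263 protein-coding starts (the 250 bases before and 50 bases after each), of which 1609 lay under a member, 7.57% of all. The dyad was in 772 of those 1609 promoters (48%, 45.5 to 50.5), in 221 of 1200 promoters under other untreated BRD3 regions (18.4%, 16.3 to 20.7) and in 6.38% of all promoters. Counted once per gene, the shares were 51.3% of 1386 genes, 19.5% of 1055 genes and 7.17% of 17492 genes. The shorter word GCATGCG, 1 of 12 motifs taken from known factors, was in 25% of member promoters (22.9 to 27.2), 11.2% of promoters under other untreated regions (9.44 to 13.1) and 4.44% of all. The exact palindrome GCGCATGCGC was in 10.7% of member promoters, 3.67% of the others and 1.33% of all. All motifs were searched on both strands. The word GCATGCG lies within the exact palindrome, so these counts share promoters.

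Promoters with a dyad lay under a member more often than promoters without one. Of 1356 promoters that held a dyad, 56.9% (54.2 to 59.6) lay under a member and 73.2% (70.8 to 75.6) under any untreated BRD3 region. Of 19907 promoters without one, 4.2% lay under a member and 9.12% under any untreated BRD3 region. The share under a member was 52.3% (49.3 to 55.2) with 1 dyad, 82% (75.6 to 87.4) with 2 and 86.7% (69.3 to 96.2) with 3 or more, the last from 30 promoters. By the free central base, 53.5% of promoters lay under a member with A, 59.3% with C, 59.4% with G and 60.8% with T, the exact palindrome, and these intervals overlapped.

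The share of promoters with a dyad went up with the number of treated lists that held the untreated region. It was 5.08% (3.17 to 7.67) of 413 promoters whose region was in none of the treated lists, 14.1% (10.4 to 18.4) of 320 in 1 list, 33.2% (28.9 to 37.7) of 467 in 2 lists, and 48% of the 1609 in all 3. At 0 lists the share did not differ from the 6.38% of all promoters beyond its interval. The ETS word CCGGAAG did not follow this order, with 19.6%, 21.9%, 24.4% and 19.6% for 0, 1, 2 and 3 lists.

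**Figure D1:**
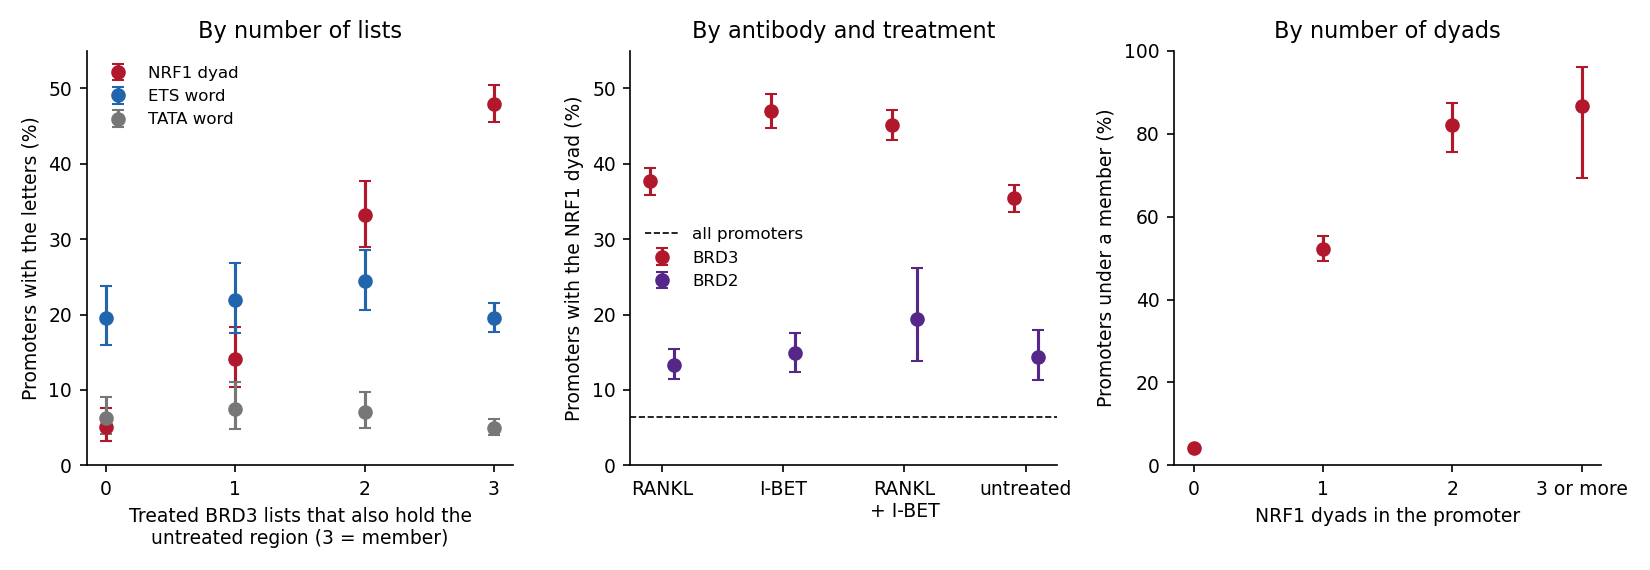
Shares of promoters with exact 95% binomial intervals. Left, promoters under untreated BRD3 regions with the NRF1 dyad, the ETS word or the TATA word, by the number of treated BRD3 lists that also hold the region: the dyad goes from 5.08% at 0 lists to 48% at 3, the members. Middle, promoters with a dyad under all regions of each BRD3 and BRD2 list, with the 6.38% of all promoters as a dashed line. Right, promoters under a member by the number of dyads they hold, from 4.2% with none to 86.7% with 3 or more.

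Over whole lists, 37.7% of promoters under BRD3 regions had a dyad with RANKL, 47% with I-BET, 45.1% with both and 35.4% in untreated cells. The BRD3 lists differ in length and members are a larger part of the shorter ones, so these shares do not rank the treatments. They include the members, and the share among the remaining regions of each treated list is not given here. A high share in a treated list is therefore not shown to come from its members alone. For BRD2, the shares were 13.3% with RANKL, 14.9% with I-BET, 19.4% with both and 14.4% in untreated cells, and every one of these intervals lay below those of the BRD3 lists. Among the members themselves, the dyad was in 45.1% of promoters where BRD2 was also called in some library and in 49% where it was not, with overlapping intervals.

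Median base composition did not separate the members from the other untreated regions. Both sets of promoters had a median GC content of 64% and a median of 26 CpG in 300 bases, against 56.3% and 13 CpG over all promoters. At least 20 CpG were in 77.1% of member promoters, 72.6% of the others and 35.9% of all. The dyad holds CpG, so its share was compared within classes of CpG number. With 10 to 19 CpG it was 37.5% under members, 18.2% under others and 6.3% of all promoters, with 20 to 29 CpG 49.5%, 22.3% and 12.2%, and with 30 to 99 CpG 55.3%, 17.3% and 16%. In each of these classes the interval of the members lay above both of the others. The dyad was built from words frequent in member promoters, so this separation was partly set by that choice. The word GCATGCG, taken from known factors, was in 29.4%, 26.9% and 22% of member promoters in these classes. Under other regions it was in 13.3%, 12.7% and 9.66%. Below 10 CpG, 46 member promoters held 2 dyads.

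Within classes of region width and score the dyad was also more frequent under members, with the same limit from how it was built. By width quartile, narrowest first, GCATGCG was in 26.2%, 28.5%, 24.3% and 19.8% of member promoters. Under other regions it was in 11.3%, 16.7%, 13.3% and 4.59%. By quartile of the width of all untreated BRD3 regions, narrowest first, member promoters had a dyad in 44.8%, 57.8%, 47.8% and 36.4%, and promoters under other regions in 27.4%, 22.1%, 16.3% and 8.87%. The median of the authors' score was 79.7 in members and 70.3 in the other untreated regions. By quartile of that score, lowest first, member promoters had a dyad in 48.7%, 44.6%, 47.6% and 51.2%, and promoters under other regions in 20.5%, 16.9%, 18.6% and 16.9%. With membership drawn again from the top 50% of each list by score, the shares were 49.2% (42.8 to 55.6) of 250 member promoters and 34.6% (31.8 to 37.4) of 1136 others. Of those 1136 promoters, 53.2% lay under a member of the whole lists.

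For the other 11 motifs the intervals of members and of other untreated regions overlapped. The ETS word CCGGAAG was in 19.6% of member promoters, 22.1% of the others and 11.6% of all. The SP/KLF word GGGCGG was in 72.8%, 71.4% and 46.2%, and the CCAAT word of NFY in 34.1%, 34.9% and 38.2%. The TATA word TATAAA was less frequent under BRD3 regions than over all promoters, at 4.97%, 6.92% and 12.6%, and so was the AP-1 word TGANTCA, at 2.86%, 3.17% and 6.99%. The PU.1 word GAGGAAG was in 10.6%, 11.8% and 13.6%. PU.1 is the master regulator of macrophages, and AP-1 is an early target of RANK signalling. ZBTB33 letters (TCTCGCG) were in 7.58%, 9.08% and 3.48%, those of CRE (TGACGTC) in 6.03%, 5.83% and 3.84%, and those of the E-box (CACGTG) in 10.9%, 12% and 7.84%. YY1 (AAGATGG) had 8.58%, 6.67% and 6.24%, and ZNF143 (ACTACAA) 4.72%, 3.75% and 3.6%.

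**Figure D2:**
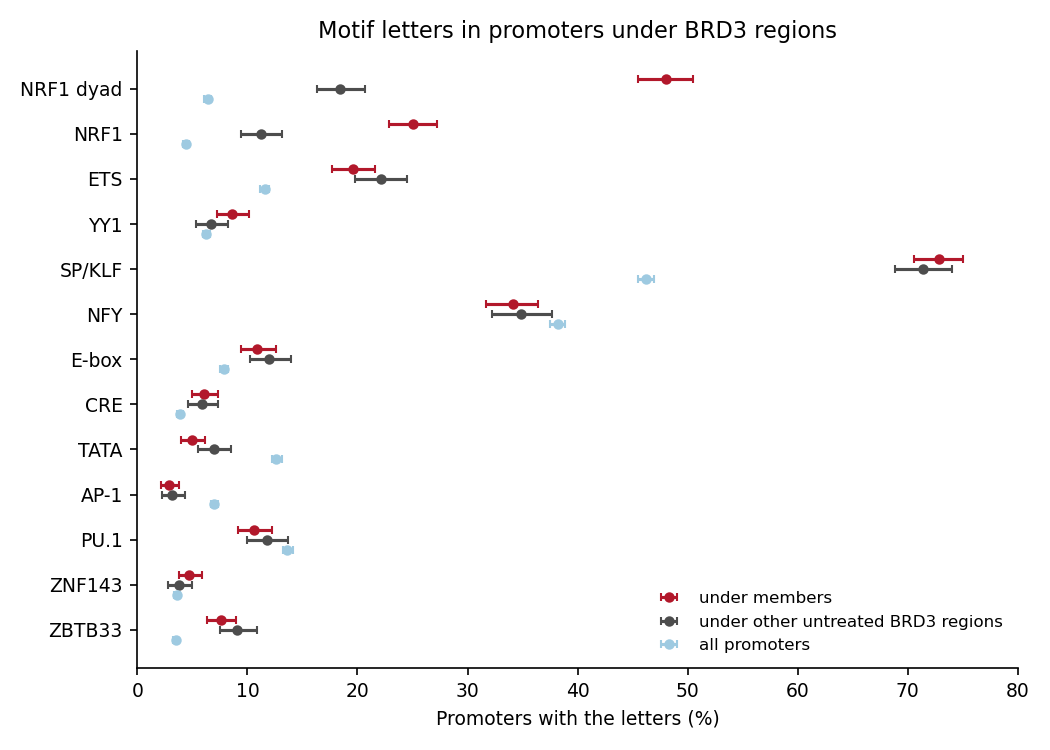
Percent of promoters that hold each motif, on either strand, under members, under other untreated BRD3 regions and over all promoters, with exact 95% binomial intervals. The NRF1 dyad (48%, 18.4% and 6.38%) and the shorter NRF1 word (25%, 11.2% and 4.44%) are the rows where members stand clear of the other untreated regions.

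The dyad came from a ranking of short words. All 8192 words of 7 bases, each counted with its reverse complement, were ordered by the share of member promoters minus the share of other untreated promoters. The first was CTGCGCA, in 37.5% of member promoters, 17.5% of the others and 6.92% of all. This word does not lie within the dyad. Of the first 10 words 6 lie within it, and of the first 20 words 10 do. The next were CGCAGGC at 40.5%, 23.9% and 10.6%, and CGCCTGC at 37.7%, 21.4% and 10.8%. The dyad was assembled from this ranking, so its letters are not independent of it.

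Members with 1 promoter window and 1 dyad were, by the median, centred closer to the dyad than to the gene start. The stretch covered in all 4 lists had a median length of 539.5 bp over 1726 members, 85.9% of the untreated width. For 355 members with 1 promoter window and 1 dyad, the middle of that stretch lay a median of 19 bp from the middle of the dyad (middle 50%, 8 to 43.2 bp), and 79.4% lay within 50 bp. From the gene start it lay a median of 53 bp in the same members, and 101 bp in 449 members with no dyad. Where the dyad was 150 to 250 bases before the start, the median middle of the stretch was at -162.5 bp (39 members). It was at -105.2 bp for dyads 100 to 150 bases before the start, -64.8 bp for 50 to 100, -14.5 bp for 0 to 50, and 8.25 bp for dyads up to 50 bases after it. Across these 355 members Pearson's r was 0.54 and Spearman's rho 0.71, as a description, since all points share the same 4 libraries.

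**Figure D3:**
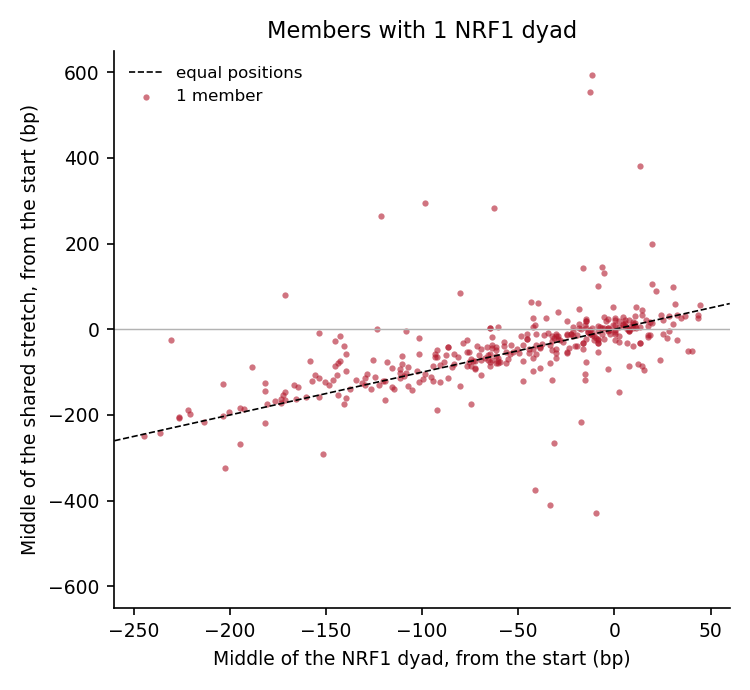
Middle of the stretch covered in all 4 BRD3 lists against the middle of the NRF1 dyad, both in bp from the gene start, for the 355 members with 1 promoter window and 1 dyad. Each point is 1 member and the dashed line marks equal positions. Points follow the line from 250 bases before the start to 50 after it, and 79.4% lie within 50 bp of it.

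Most members lay at gene starts. Within 1 kb of a listed start were 1304 of 1727 members (75.5%, 73.4 to 77.5) and 1070 of 1941 other untreated regions (55.1%, 52.9 to 57.4), with 64.7% over all untreated regions. A further 11.4% of members and 11.4% of others lay at an end of a protein-coding gene for which no start is listed. In gene bodies were 6.89% of members and 16% of others, and elsewhere 6.2% and 17.4%. The difference at starts was widest among the widest regions, at 78.1% of members and 44.7% of others in the upper width quartile, and in the lowest quartile the shares were 64.5% and 56.2%. Of members over a promoter window with strand known, 13.9% (12 to 16) covered starts on both strands, against 9.94% (8.11 to 12) of the others.

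Over all members with 1 promoter window, the regions reached further before the start than after it. In these 900 members the median reach before the start was 379 bp with RANKL, 366 bp with I-BET, 362 bp with both and 356.5 bp in untreated cells. After the start it was 286, 289.5, 265 and 290 bp. In the 136 of them in the widest untreated quartile, the reach before the start was 526 bp with RANKL, 437.5 bp with I-BET, 424.5 bp with both and 700.5 bp in untreated cells. After the start it was 446.5, 337.5, 295.5 and 717 bp, so in untreated cells these wide members reached slightly further after the start than before it.

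Members and other regions were well apart at the threshold. The smallest overlaps that made a member were 305 bp at G3bp2, 309 bp at Wdr33 and 318 bp at Txndc15, and no member rested on an overlap under 100 bp. For the other regions, the gap to the nearest region was taken in each list that missed them, and the largest gap was kept. The nearest misses were Ahi1 at 1281 bp, a region on chromosome 2 with no gene named at 1377 bp, and Zfp27 at 1653 bp. Of the regions in the treated lists, members took up 45% under RANKL, 77.4% under I-BET and 60.8% under both. The I-BET list was the shortest, with 2232 regions, against 3668 in untreated cells, and most of what it held were members.

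The typical member was close to its untreated width in each treated library, slightly wider with RANKL and slightly narrower with both agents. The median width was 680 bp with RANKL, 658 bp with I-BET, 618 bp with both and 670 bp in untreated cells. Per member, the median ratio to the untreated width was 1.02 (1.01 to 1.04) under RANKL, 1 (0.988 to 1.02) under I-BET and 0.95 (0.936 to 0.963) under both. With RANKL, 775 members were narrower and 946 wider than in untreated cells. With I-BET, 854 were narrower and 868 wider, and with both agents 1019 were narrower and 705 wider.

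The wide members behaved otherwise. In the 302 members of the widest untreated quartile (1118 bp and more), the median ratio was 0.837 under RANKL, 0.57 under I-BET and 0.505 under both. Choosing regions for a large untreated width lowers every ratio to it, so these values include that effect. In quartiles of the RANKL width, which neither the I-BET nor the untreated list set, the median ratio of I-BET to untreated width was 1.06, 1.04, 1.02 and, in the widest, 0.874 (0.834 to 0.917). In the same way, the width with both agents over that with RANKL alone, by untreated quartile, was 0.945, 0.959, 0.925 and 0.846 (0.778 to 0.882). In the widest untreated quartile 121 of 302 members were at or below 0.5 of their untreated width with I-BET, 150 with both and 62 with RANKL.

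Itga4, an integrin subunit of leukocytes (chr2:79253452-79257055, build mm10), had 3667 bp with RANKL, 514 bp with I-BET, 466 bp with both and 3604 bp in untreated cells. Cyth4, a cytohesin of blood cells (chr15:78596762-78600980), had 4250, 1133, 909 and 4219 bp. Actb, the cytoskeletal actin (chr5:142905854-142910332), had 4398, 944, 1838 and 4479 bp. A member in the body of Lcp1, the actin-bundling protein of leukocytes, had 5490, 1755, 599 and 5356 bp. In these 4 genes the RANKL and untreated widths were close together and the I-BET widths far below.

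Other wide members differed in more than the I-BET libraries. Zfp710, a zinc finger gene, had 3264 bp with RANKL, 1435 bp with I-BET, 834 bp with both and 5048 bp in untreated cells. Gtf2a1, a subunit of the general factor TFIIA, had 2745, 1913, 651 and 3942 bp. Tgif1, a homeobox repressor of TGF-β signalling, had 586, 647, 654 and 3673 bp, so that all 3 treated libraries were narrow.

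Brd2 itself carried a wide member (chr17:34119211-34123112), of 3851 bp with RANKL, 2474 bp with I-BET, 3356 bp with both and 3902 bp in untreated cells. In each of the I-BET lists this width was split into 2 regions. The stretch shared by all 4 lists was taken from the region with the largest overlap in each. At Brd2 alone, these regions had no base in common. Hexim1, the inhibitor of P-TEFb, had 2223 bp with RANKL, 1403 bp with I-BET, 634 bp with both and 1697 bp in untreated cells. Malat1, a nuclear non-coding RNA, had 2599, 1770, 1678 and 3323 bp.

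The members with the longest stretch covered in all 4 lists were, by that choice, wide in every library. Hnrnpl, a splicing regulator (chr7:28808933-28811696), had 2523 bp with RANKL, 2348 bp with I-BET, 2394 bp with both and 2764 bp in untreated cells, of which 2277 bp were covered in all 4 lists. The region shared by the starts of Mbd6 and Ddit3, a stress-response factor, had 2212, 2213, 2181 and 2247 bp. Skil, a co-repressor of SMAD proteins, had 2456, 2552, 2343 and 2162 bp. The starts of Fkbp3 and Fancm, of the Fanconi anaemia pathway, shared 2045, 2137, 2106 and 2092 bp. Mepce, which caps the 7SK RNA that holds P-TEFb inactive, shared a region with Zcwpw1 of 2114, 2076, 2062 and 2043 bp. These are the first 5 in that order.

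**Figure D4:**
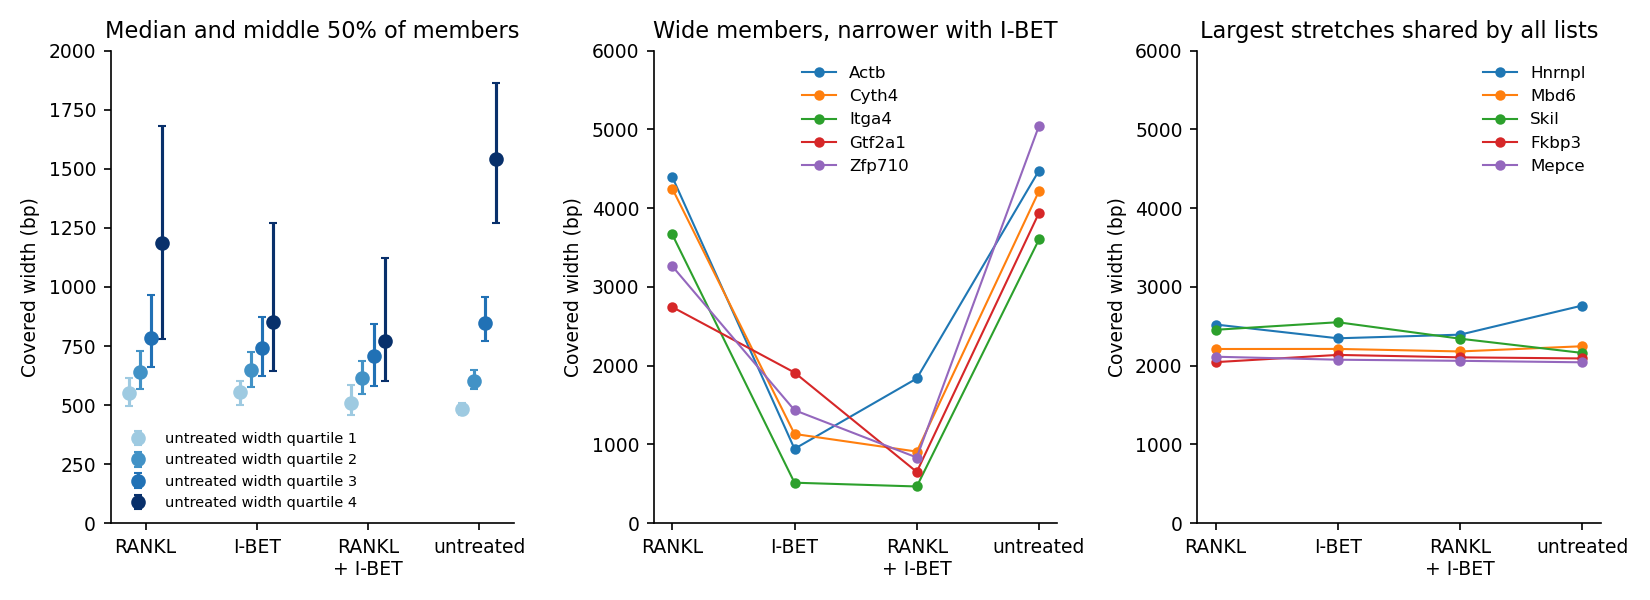
Width in bp covered by BRD3 regions in each library, 1 library per treatment. Left, median (point) and middle 50% of members (bar) by quartile of untreated width: in the widest quartile the medians were 1188 bp with RANKL, 852 bp with I-BET, 772 bp with both and 1540 bp untreated. Middle, 5 of the widest members, down to 466 bp at Itga4 with both agents. Right, the 5 members with the longest stretch shared by all lists, between 2043 and 2764 bp in every library. Lines join values of 1 member and do not mark an order of treatments.

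Some members were wider with I-BET. Ddx10, an RNA helicase of ribosome biogenesis, had 721 bp with RANKL, 1534 bp with I-BET, 702 bp with both and 545 bp in untreated cells. Mad2l1, of the spindle checkpoint, had 1021, 1782, 567 and 717 bp, and Stxbp5, a syntaxin-binding protein, had 537, 1226, 588 and 563 bp. In all 3 the I-BET library was the widest. With both agents the ratio to the untreated width was 1.29 at Ddx10, 0.791 at Mad2l1 and 1.04 at Stxbp5. Over all members, 17 were at least 2 times as wide with I-BET as untreated and 127 were at or below 0.5 times.

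Members with a dyad held their width slightly better than those without. The median ratio to untreated was 1.04 under RANKL, 1.02 under I-BET and 0.981 under both in 636 members with a dyad, and 1, 0.964 and 0.908 in 574 members over a promoter window without one. At or below 0.5 of the untreated width with I-BET were 5.03% and 9.93%. The untreated median width, the denominator of these ratios, was 663 bp with a dyad and 729 bp without.

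Most members carried no BRD2 call, and in each BRD2 list most of the other untreated BRD3 regions had none either. In 1327 members (76.8%) no BRD2 list had a region, in 252 members 1 list did, and in 11 members all 4 did. The number of BRD2 lists per region was not counted for the other untreated regions. BRD2 was called at 16.7% of members (14.9 to 18.5) and 23.2% of other untreated BRD3 regions (21.4 to 25.2) with RANKL, with 20.1% over both. With I-BET the shares were 9.67% and 16.2% (13.1% over both), with both agents 2.84% and 4.28% (3.6% over both), and in untreated cells 6.37% and 10.5% (8.53% over both). The BRD2 lists differ in length, from 245 regions with both agents to 1716 with RANKL, so the treatments cannot be ranked from these shares.

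BRD2 calls followed the width of the BRD3 region. With RANKL, BRD2 was called at 3.05%, 11.6%, 22.6% and 34.4% of members from the narrowest to the widest quartile, and at 4.93%, 21.3%, 26.5% and 37.7% of the other regions. In the widest quartile the intervals of members and others overlapped in all 4 treatments. In the second quartile those of RANKL, I-BET and untreated cells did not, with members lower, for example 2.71% of members and 12.7% of others in untreated cells. The 11 members with BRD2 in every library included Ptma (prothymosin alpha), Tardbp (the RNA-binding protein TDP-43), Rps10, Mtg1, Kansl1, Rprd2 and Ncor1, a nuclear receptor co-repressor whose region is shared with Pigl. The others were at Gm34296, at Ssmem1 with Tmem209, and at 2 places with no gene named.

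Of 21887 protein-coding genes, 3111 (14.2%) had an untreated BRD3 region within 1 kb of a listed start, or of either end where none is listed, and 1712 (7.82%) had a member, 55% of the genes with an untreated region. The gene lists below are read against that 55%. A region that lies between a pair of genes is counted for each of them.

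In lists with more than 10 such genes, the share with a member went from 34% to 76.9%. Of DEAD and DEAH box RNA helicase genes with an untreated region, 10 of 13 had a member (76.9%, 46.2 to 95). Of RNA polymerase and elongation genes 8 of 11 did (72.7%), of which 7 encode subunits of RNA polymerase II or shared with it and the other is Polr1a. Of mitochondrial ribosomal protein genes 16 of 23 did (69.6%, 47.1 to 86.8), among them Dap3, Mrpl12, Mrpl45 and Mrps18b. Of splicing genes 24 of 40 did (60%), with Srsf1, Srsf2, Sf3b1, U2af1, U2af2 and Hnrnpu among them. Each of these intervals includes 55%.

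Respiratory chain genes had a member in 19 of 39 (48.7%), translation factors in 15 of 27 (55.6%), nucleolar genes in 8 of 18 (44.4%), aminoacyl-tRNA synthetase genes in 6 of 14 (42.9%), Mediator and Integrator genes in 7 of 17 (41.2%), proteasome genes in 4 of 9 and Zfp zinc finger genes in 37 of 70 (52.9%). Cytosolic ribosomal protein genes had one in 14 of 37 (37.8%, 22.5 to 55.2). Replication-dependent histone genes had one in 17 of 50 (34%, 21.2 to 48.8), an interval below 55%. The histone genes lie in clusters and share regions. Among them, H2bc8 with H2ac8 had 5336 bp with RANKL, 608 bp with I-BET, 1140 bp with both and 1957 bp in untreated cells.

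Within most of these lists, genes with a dyad had a member more often than genes without one. Over all promoters, 56.9% with a dyad and 4.2% without lay under a member, so these lists repeat the overall direction. The dyad was also built from words frequent in member promoters, so the counts are a description. Of 17 respiratory chain genes with a dyad in a listed promoter, 12 lay under a member there, and of 54 without a dyad 4 did. For mitochondrial ribosomal proteins it was 10 of 13 with a dyad and 5 of 56 without. For the proteasome it was 4 of 6 and 0 of 27, and for the lysosome and its proton pump 4 of 4 and 2 of 28. For genes of the MYC network it was 6 of 9 and 2 of 13. Chromatin modifier genes showed no such difference, with 2 of 8 and 12 of 46, and histone genes had 0 of 1 and 16 of 61.

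**Figure D5:**
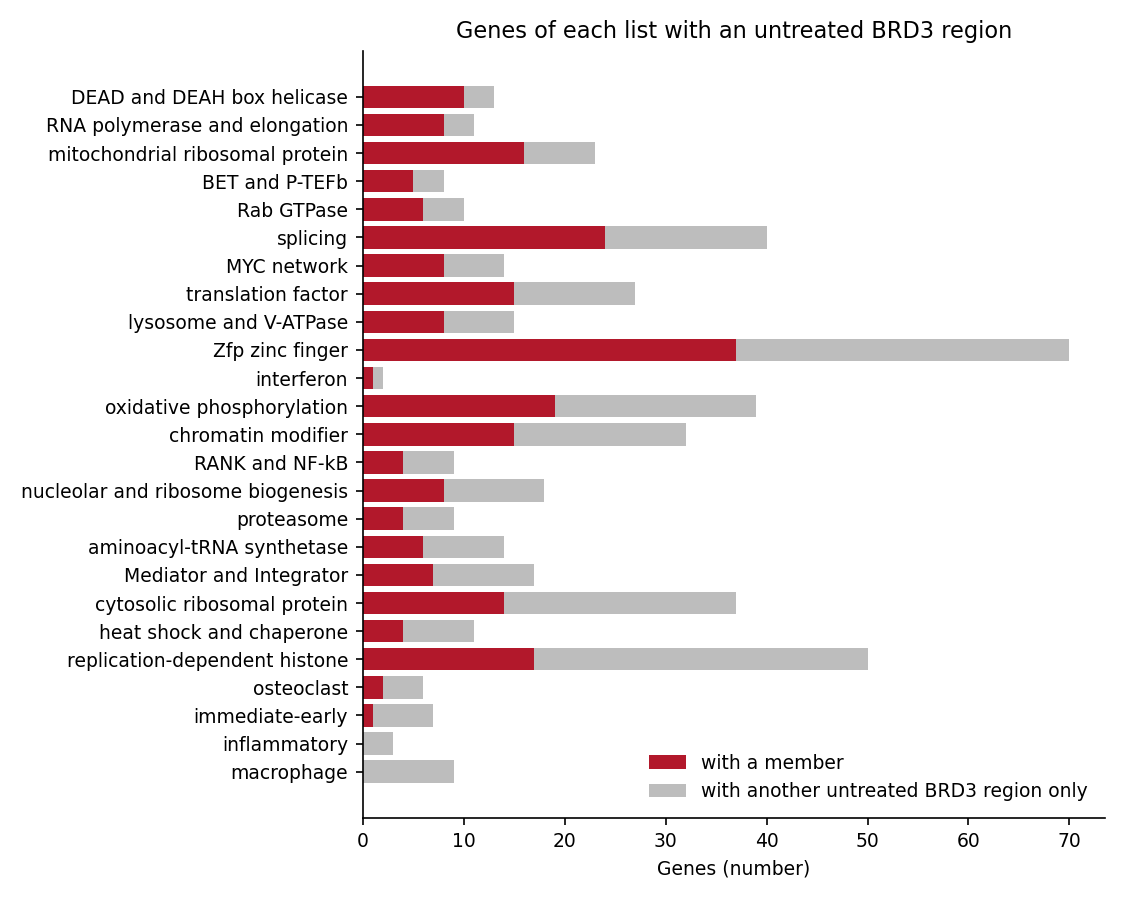
Number of protein-coding genes of each list with a member within 1 kb of a start (red) and with another untreated BRD3 region only (grey), ordered by the share with a member. The red part is 10 of 13 for DEAD and DEAH box helicases, at the top, and 0 of 9 for macrophage genes, at the bottom, and 55% over all genes with an untreated region.

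Genes of macrophage identity had no member at their starts. Of 35 such genes 9 had an untreated BRD3 region within 1 kb (Cebpa, Csf1r, Ctss, Cx3cr1, Laptm5, Lgals3, Lyz1, Msr1 and Spi1), and 0 of 9 (0 to 33.6%) had one that was also called in all treated lists. Spi1, which encodes PU.1, had a BRD3 region of 6587 bp with RANKL, 948 bp with I-BET, none with both and 4010 bp in untreated cells. Csf1r, the receptor that macrophages need to survive, had 3294 bp with RANKL, none in either I-BET library and 3095 bp in untreated cells. Msr1, the class A scavenger receptor, had 3766 bp with RANKL, none in either I-BET library and 3109 bp in untreated cells. The fractalkine receptor Cx3cr1 had 2906 bp with RANKL, none in either I-BET library and 2287 bp in untreated cells. Other genes of the 9 differed. Cebpa had 590 bp with RANKL, none with I-BET, 566 bp with both and 2116 bp in untreated cells. Laptm5 had 1273 bp in untreated cells and none in any treated list, so these genes did not share 1 pattern. No list held a region within 1 kb of the start or, where none is listed, of an end of Cd3e, Alb, Col1a1, Cdh5 or Epcam, markers of other cell types. The same was true of the macrophage markers Itgam, Adgre1 and Fcgr3, so an absent call alone does not give the cell type. Other macrophage markers did have calls. With RANKL, and in no other BRD3 list, Cd68 had a BRD3 region of 3593 bp, Cd14 of 4485 bp and Lyz2 of 3935 bp. Ptprc had a BRD2 region of 677 bp with RANKL and no BRD3 region.

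Among the genes of the osteoclast programme and of RANK signalling a few had members. Of 6 osteoclast genes with an untreated region, Fcer1g, a co-receptor subunit, and Vav3, an exchange factor, had one. Of 9 RANK and NF-κB genes 4 did: Map3k14 (the kinase NIK), Rela, Tab1 and Traf3. Rela had 956 bp with RANKL, 1028 bp with I-BET, 941 bp with both and 1525 bp in untreated cells. Map3k14 had 605, 664, 721 and 544 bp. Of 7 immediate-early genes Fosb alone had a member, of 609 bp with RANKL, 565 bp with I-BET, 698 bp with both and 678 bp in untreated cells, whereas Jun, Junb, Klf4, Klf10, Dusp4 and Dusp6 had untreated regions that were missing from some treated list. Of 2 interferon genes Irf3 had one, and of 3 inflammatory genes with an untreated region (Ccl3, Ccl4 and Nlrp3) none did. Of the listed promoters of osteoclast genes (18 genes), immediate-early genes (23), RANK and NF-κB genes (25) and inflammatory genes (14), none held a dyad, where 7.17% of all genes do. Of 25 macrophage genes 1 held a dyad, and of 21 interferon genes 1 did.

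MYC network genes had a member in 8 of 14: Max, the partner of MYC, Mga, Mlx, Mxi1, Cdk4, Ldha, Odc1, which starts polyamine synthesis, and Ran. Max had 456 bp with RANKL, 545 bp with I-BET, 440 bp with both and 416 bp in untreated cells. Myc itself had no BRD3 region in untreated cells, and 1 of 422 bp with both agents. Of 8 BET and P-TEFb genes with an untreated region, Brd2, Ccnt2, Hexim1, Mepce and Mllt3 had a member. Brd3 had a region of 1160 bp in untreated cells and none in any treated list. Nfatc1 had none in any list.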

How the data were processed

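The deposited data are peak lists, 1 for each of BRD2 and BRD3 and each treatment; the 4 input libraries have none and were not analysed here. Per the submitters' processing notes, FastQC, Bowtie2 2.3.4.1 and MACS2 2.1.1.20160309 were used, on mm10 (GRCm38). Per the file headers and peak names, nearly every region joins peaks from 3 peak sets, numbered 3, 5 and 7, and the sources used here do not say what these are. The score is the authors' value per region and was used only to describe and filter regions. Starts were read as counted from 0 and printed from 1, which could be off by 1 base.

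Members, gene lists and motifs were chosen with earlier results of these data known. The NRF1 dyad is GCATGCG extended at each end by its best-ranked overlapping 7-base word, with 1 central base left free. Regions sharing at least 1 bp were matched. Where several regions of a list overlapped a member, their widths were summed. Gene starts, promoters and names came from RefSeq GRCm38.p6 tables. A gene without a listed start was given a window of 1 kb around both ends. Named genes were the 10 widest members, the 10 highest and 10 lowest I-BET to untreated ratios, the 10 longest shared stretches, list members, and fixed genes. Genes with printed sequence and the lowest overlaps were chosen after their values were seen. Python 3.11.15 with numpy 2.4.6, pandas 2.3.3 and scipy 1.17.1 was used, and the overlap and motif searches were tested on simulated data. Some named genes are not reported here.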

Additional observations from a re-analysis of the deposited data

How the results depend on the processing

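Of 121 alternative values, 96 stayed within the counting interval of the value reported or, for counts, within 1.5 times. With the top 50% of each list by score, 269 of 1838 untreated regions were members (14.6%, 13 to 16.3), against 47.1% over whole lists. BRD2 was called at 10.4% of these 269 with RANKL, 3.72% with I-BET, 1.12% with both and 4.09% in untreated cells. Of the same 269 members, 78.1% lay at a listed start. At a window of 250 bp the share at a listed start was 73.3%, and at 5 kb it was 79.3%. In the 250 bases before the start alone, 20.9% of member promoters held GCATGCG. The settings in the next 3 sentences were added after seeing the data. In the same 250 bases, 38.7% of member promoters held a dyad, against 14.7% of the others. With the top 50% by score, GCATGCG was in 28% of member promoters and 18.8% of the others, and the dyad in 49.2% and 34.6%, smaller differences than over whole lists. With at least 50% of the untreated region covered, 50.7% of member promoters held a dyad, and counted once per gene 51.3%. Of 50 gene list counts, 1 moved by over 1.5 times: at 5 kb a macrophage gene had a member. No paired analysis was possible because each antibody and treatment has 1 library, and for the same reason no replicate could be left out. The depth of the libraries is unknown, so an absent region is an absent call.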

Other observations

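Transfer RNA genes, which RNA polymerase III transcribes, were under 16 members that covered 20 of the 408 tRNA genes in the table. In all, 27 untreated BRD3 regions lay over tRNA genes, so 59.3% were members, against 47.1% of all untreated BRD3 regions; with 27 regions this is near that share. Of the 16 members, 9 lay away from gene starts. The member over n-TTagt9 had 651 bp with RANKL, 589 bp with I-BET, 669 bp with both and 488 bp in untreated cells, and the one over n-THgtg4 had 533, 557, 522 and 503 bp. The member over n-TTtgt2 had 1426, 540, 460 and 2504 bp. Members over snRNA genes were 4 of 16 such regions.

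By chromosome, the share of untreated BRD3 regions that were members, 47.1% over all, was lowest on chromosome 2 (90 of 261, 34.5%, 28.7 to 40.6), leaving out chromosome Y with 0 of 2, and highest on chromosome 10 (125 of 221, 56.6%, 49.7 to 63.2), and the remaining chromosomes lay between 39.8% and 55%.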
